A study of Mus musculus with 19 samples.

Results

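The genes described here are 10 AP-1 and immediate early genes (Fos, Fosb, Fosl2, Jun, Junb, Jund, Atf3, Egr1, Egr2 and Ier2) of the 23951 genes in each of the deposited expression tables. They were chosen by name, as a family, and all 10 were found in both tables. RNA-seq was run on microglia, the resident macrophages of the brain, isolated from mouse hippocampus by cell sorting on CD11b and CD45. The 15 RNA libraries fall into 5 groups of 3. At 4.5 months the groups are CK-p25 mice labelled as a PU.1 conditional knockout (CK-p25 PU.1 cKO), CK-p25 mice and CK mice. All 3 of these groups carry Cx3cr1CreER, a tamoxifen-inducible Cre expressed in microglia and some other myeloid cells, and received tamoxifen at 50 mg/kg for 5 days when p25 was induced, with tissue taken 6 weeks later. p25 is an activator of the kinase Cdk5, and in CK-p25 mice it is expressed in forebrain neurons, which then degenerate; CK mice are their controls without p25. At 3 months the groups are labelled PU.1 cKO and control, both carrying Cx3cr1CreER and both given tamoxifen, with tissue taken 1 week later. Whether each library is a separate animal is not stated in the labels, and the p-values measure the spread between libraries, which may be technical.

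AP-1 is a dimer of proteins of the Fos and Jun families, and ATF3 can join it. The genes are called immediate early because signalling through MAP kinases switches them on within minutes without new protein synthesis, and the transcripts decay as quickly. In macrophages AP-1 binds much of the open chromatin together with PU.1, and in microglia the same genes are also known to rise while tissue is being dissociated. EGR1 and EGR2 are zinc finger factors of the same early response, and IER2 is a small nuclear protein induced with them.

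Values are FPKM, fragments scaled to transcript length and sequencing depth, so levels may be compared between genes. Differences are log2(FPKM + 1) of one group minus another, tested with limma, and a gene passed at a Benjamini-Hochberg adjusted p below 0.05 over all genes tested. Genes with a mean under 1 FPKM over a table were not tested. At 4.5 months this removed Fosb and at 3 months Fosl2, so 9 of the 10 genes were tested at each age.

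Spi1, which encodes PU.1, was measured at 165.3, 151.5 and 224.0 FPKM in the CK-p25 PU.1 cKO libraries, against 250.7, 208.2 and 298.3 FPKM in CK-p25 libraries and 256.5, 229.7 and 250.9 FPKM in CK libraries. The difference between CK-p25 PU.1 cKO and CK-p25 was -0.49 ± 0.17 on the log2 scale and did not pass (limma adjusted p = 0.745). The value covers the whole gene, and the labels do not say which part was deleted. At 3 months Spi1 stood at 409.4, 338.3 and 337.2 FPKM in libraries labelled PU.1 cKO, against 260.8, 105.4 and 247.9 FPKM in libraries labelled control. Spi1 was thus higher where the titles name the knockout, by 0.92 ± 0.35 on the log2 scale, which did not pass (limma adjusted p = 0.0853). The table's column names also read the other way round, so these libraries are called by their labels throughout. If the column names are right and the titles wrong, every 3-month difference below changes sign. The summed FPKM of 8 microglial markers was 24716 to 28523 in libraries labelled PU.1 cKO and 6812 to 12693 in libraries labelled control. At 4.5 months the same sum was 13857 to 15546 in CK-p25 PU.1 cKO libraries, 14465 to 16245 in CK-p25 libraries and 23072 to 25362 in CK libraries. Neutrophil markers reached 736 FPKM in CK-p25 replicate 2, with 0 and 1.70 FPKM in its group mates, and 9353 FPKM in replicate 1 labelled control. The part of these other cells in the results below was not tested. In bulk RNA from sorted cells, fewer cells of a type and less RNA per cell cannot be told apart.

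Atf3 and Egr2 were the members that rose in CK-p25 microglia. Atf3, a stress-induced ATF/CREB family factor that pairs with Jun proteins, was measured at 52.1, 57.2 and 102.5 FPKM in CK-p25 libraries and at 10.7, 13.8 and 13.3 FPKM in CK libraries. Every CK-p25 library lay above every CK library, and Atf3 rose by 2.34 ± 0.23 on the log2 scale (SE, limma adjusted p = 0.000238). Egr2, a factor known from myeloid differentiation and from Schwann cells, was measured at 25.1, 20.2 and 38.8 FPKM in CK-p25 libraries and at 3.34, 5.58 and 5.36 FPKM in CK libraries. These groups were also fully apart, and the rise was 2.31 ± 0.26 (limma adjusted p = 0.000463). These are 2 of 9 members tested, beside 31.3% of all 10894 genes that passed in either direction and 17.6% that passed as higher, so the count lies close to the share over all genes. Monocyte markers summed to 34.7 to 51.1 FPKM in CK-p25 PU.1 cKO mice, 15.9 to 30.7 FPKM in CK-p25 mice and 3.87 to 13.4 FPKM in CK mice, and astrocyte markers to 89.2 to 181 FPKM in CK-p25 PU.1 cKO mice, 83.0 to 289 FPKM in CK-p25 mice and 46.6 to 63.8 FPKM in CK mice. Their part in the rise of Atf3 and Egr2 was not tested.

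Atf3 and Egr2 also rose in CK-p25 PU.1 cKO microglia. Atf3 stood at 50.1, 44.3 and 45.9 FPKM in the CK-p25 PU.1 cKO libraries, 1.82 ± 0.23 above CK on the log2 scale (limma adjusted p = 0.000798). Egr2 stood at 19.2, 13.9 and 20.6 FPKM there, 1.72 ± 0.26 above CK (limma adjusted p = 0.00185). Here too 2 of 9 members passed, beside 31.1% of all genes in either direction and 17.8% as higher. Both contrasts use the same CK libraries, so the values are given side by side and are not independent of each other.

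**Figure D1:**
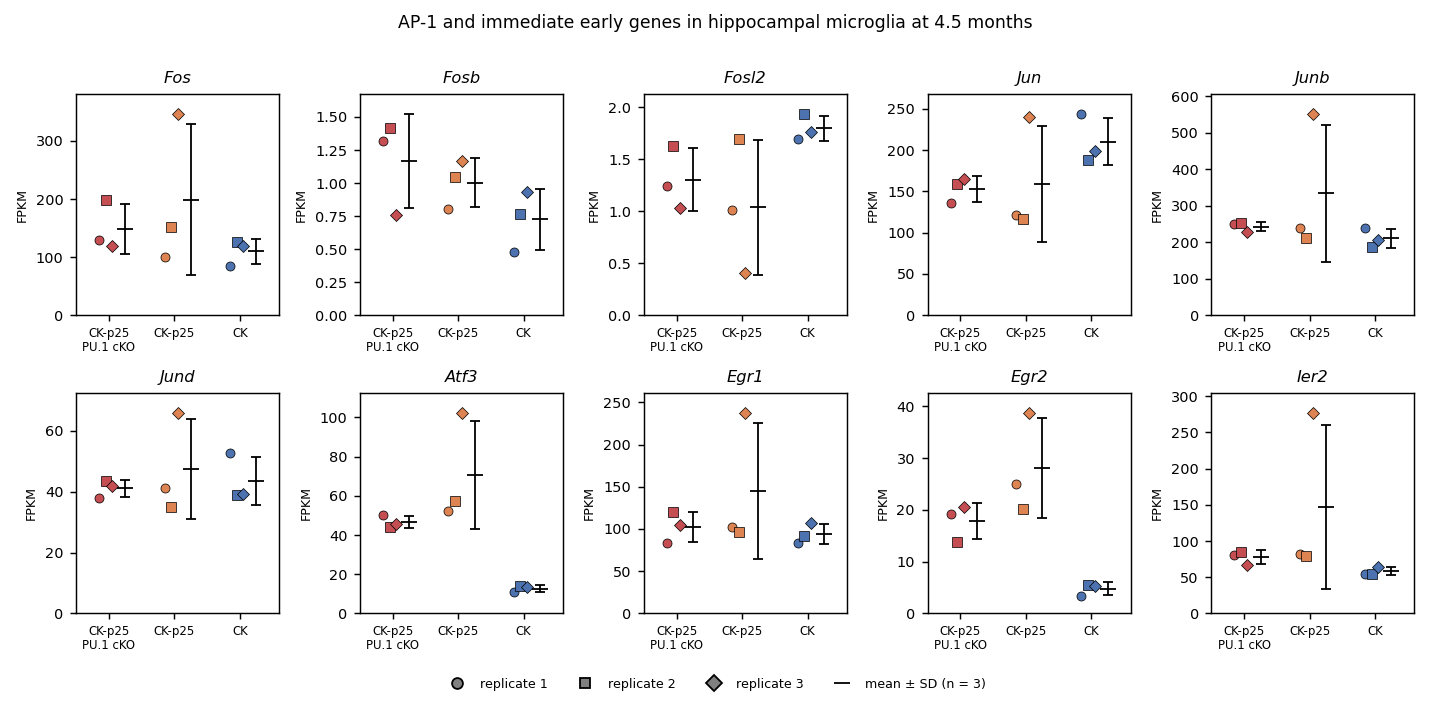
FPKM of the 10 genes in each 4.5-month library, in a panel per gene with its own linear axis from 0; the symbols are replicates and the bars are mean ± SD of 3 libraries, in the order CK-p25 PU.1 cKO, CK-p25 and CK. Atf3 and Egr2 lie higher in all 6 p25 libraries than in any CK library, and CK-p25 replicate 3 is the highest point of its group for 9 of 10 genes.

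Between CK-p25 PU.1 cKO and CK-p25 microglia no member passed, and none of the 10894 genes did (0%), with 0 of 9 members at an unadjusted p below 0.05. Atf3 differed by -0.52 ± 0.23 (limma adjusted p = 0.745), with all CK-p25 PU.1 cKO libraries under the lowest CK-p25 library. Groups that do not overlap were found for 9.38% of all genes. Egr2 differed by -0.59 ± 0.26 (limma adjusted p = 0.745), and its groups overlapped, at 20.6 FPKM in a CK-p25 PU.1 cKO library and 20.2 FPKM in a CK-p25 library. Without CK-p25 replicate 3 these differences were -0.22 for Atf3 and -0.34 for Egr2. With all libraries the 95% interval of the difference was -1.05 to 0.01 for Atf3 and -1.19 to 0.02 for Egr2. Ier2 differed by -0.65, Egr1 by -0.38, Junb by -0.32, Fos by -0.26, Jund by -0.15, Jun by 0.02 and Fosl2 by 0.22, with limma adjusted p of 0.745 to 0.984, and Fosb was not tested. Without CK-p25 replicate 3 the same differences were -0.07 for Ier2, 0.04 for Egr1, 0.11 for Junb, 0.23 for Fos, 0.11 for Jund, 0.36 for Jun and -0.03 for Fosl2, so Egr1, Junb, Fos, Jund and Fosl2 changed sign.

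The promoter stretches of Atf3 and Egr2, which rose, and of Fos, Jun and Junb, which did not pass, are shown to let their early-response elements be compared. RefSeq promoters (build GRCm38.p6) were found for 8 of the 10 genes, in 12 windows because Egr2 has 5 annotated starts. Each line gives the last 120 bases before the annotated start, 5′ to 3′ on the gene's strand, with the CRE core TGACG on either strand, TGACNTCA and the CArG box in capitals. For Egr2 the third of its 5 windows is shown, chosen because it holds both kinds of element.
Atf3, chr1:191183334-191183453, minus strand: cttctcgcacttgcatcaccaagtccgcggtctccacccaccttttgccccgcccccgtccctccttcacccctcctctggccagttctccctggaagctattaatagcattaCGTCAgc
Egr2, chr10:67537749-67537868, plus strand: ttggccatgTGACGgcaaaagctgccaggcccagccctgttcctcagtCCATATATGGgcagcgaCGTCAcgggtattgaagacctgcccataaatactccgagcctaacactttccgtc
Fos, chr12:85473770-85473889, plus strand: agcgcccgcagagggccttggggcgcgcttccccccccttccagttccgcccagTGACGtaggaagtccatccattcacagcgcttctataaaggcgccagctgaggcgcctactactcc
Jun, chr4:95052223-95052342, minus strand: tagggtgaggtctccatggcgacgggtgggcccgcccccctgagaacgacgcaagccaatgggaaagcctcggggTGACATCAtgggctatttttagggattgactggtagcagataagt
Junb, chr8:84978749-84978868, minus strand: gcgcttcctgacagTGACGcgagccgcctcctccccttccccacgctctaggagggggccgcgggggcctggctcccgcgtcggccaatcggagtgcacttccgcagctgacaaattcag

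The 7 motifs below were searched on both strands in the 250 bases before each start, over 32851 windows. The CRE core TGACG, to which CREB and ATF proteins bind, was found for 5 of the 8 genes, in 7 of their 12 windows, and in 17.8% of all windows. The third to the fifth Egr2 windows overlap, so a site of Egr2 can be counted in several windows. The CArG box, to which serum response factor binds, was found for 1 of 8 genes, Egr2, in 4 of its 5 windows, and in 1.47% of all windows. The full palindrome TGACGTCA was in 0 of 12 windows (1.55% of all windows), and TGACNTCA, a wider pattern that includes it and was tried once no match had been found, was in 1 of 12, that of Jun, and in 7.49% of all. TGANTCA, the classical AP-1 site, was in 0 of 12 (6.75% of all), TATAAA in 1 of 12 (12.4% of all) and GAGGAA, a core bound by PU.1, for 2 of 8 genes, Atf3 and Egr2, in 5 of 12 windows (23.3% of all). A match is a description of the sequence only. Sites farther upstream than 250 bases were not searched, so a gene without a match here, such as Fos for the CArG box, may hold one there.

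The 3 Jun family genes did not pass in either contrast with CK. Jun, the founding AP-1 subunit, stood at 135.4, 159.5 and 165.0 FPKM in the CK-p25 PU.1 cKO libraries, 121.3, 116.2 and 239.9 FPKM in CK-p25 libraries and 243.3, 188.5 and 199.3 FPKM in CK libraries. CK-p25 replicates 1 and 2 and each CK-p25 PU.1 cKO library lay below every CK library, while CK-p25 replicate 3 lay among the CK libraries. The difference did not pass, at -0.45 ± 0.26 for CK-p25 PU.1 cKO against CK (limma adjusted p = 0.233) and -0.48 ± 0.26 for CK-p25 against CK (limma adjusted p = 0.205). Without CK-p25 replicate 3 both passed, at -0.45 (limma adjusted p = 0.0177) and -0.81 (limma adjusted p = 0.00311). With that library left out, 46.6% of all genes passed in CK-p25 PU.1 cKO against CK and 41.8% in CK-p25 against CK.

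Junb, a Jun protein with weaker activating power that can restrain Jun, was at 248.4, 252.4 and 227.8 FPKM in the CK-p25 PU.1 cKO libraries, 239.6, 211.4 and 549.8 FPKM in CK-p25 libraries and 237.9, 186.7 and 206.9 FPKM in CK libraries. Apart from the single high CK-p25 library the groups lay close together, and neither CK-p25 PU.1 cKO (0.21 ± 0.32, limma adjusted p = 0.655) nor CK-p25 (0.53 ± 0.32, limma adjusted p = 0.24) passed against CK. The CK-p25 value was 0.10 without CK-p25 replicate 3. Jund, the Jun protein that is mostly expressed without stimulation, ranged over 38.1 to 43.5 FPKM in the CK-p25 PU.1 cKO libraries, 35.0 to 66.0 FPKM in CK-p25 libraries and 38.9 to 52.6 FPKM in CK libraries. Its difference from CK was -0.07 in CK-p25 PU.1 cKO (limma adjusted p = 0.841) and 0.08 in CK-p25 (limma adjusted p = 0.815).

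Fos, which forms a stable dimer with Jun, was at 128.8, 198.0 and 118.6 FPKM in the CK-p25 PU.1 cKO libraries, 99.6, 151.8 and 345.6 FPKM in CK-p25 libraries and 84.7, 125.6 and 119.3 FPKM in CK libraries. The groups overlapped, and the differences from CK were 0.41 ± 0.42 in CK-p25 PU.1 cKO (limma adjusted p = 0.499) and 0.68 ± 0.42 in CK-p25 (limma adjusted p = 0.26). Without CK-p25 replicate 3 the CK-p25 difference was 0.18. Fosb, a further Fos protein gene, was low, at 0.758 to 1.42 FPKM in the CK-p25 PU.1 cKO libraries, 0.801 to 1.16 FPKM in CK-p25 libraries and 0.478 to 0.935 FPKM in CK libraries. Fosl2, which encodes Fra-2, was low too, at 1.03 to 1.63 FPKM in the CK-p25 PU.1 cKO libraries, 0.403 to 1.70 FPKM in CK-p25 libraries and 1.69 to 1.93 FPKM in CK libraries. It differed from CK by -0.29 in CK-p25 PU.1 cKO (limma adjusted p = 0.415) and by -0.51 in CK-p25 (limma adjusted p = 0.152).

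Egr1, the companion of Egr2, was at 83.7, 119.7 and 104.3 FPKM in the CK-p25 PU.1 cKO libraries, 101.9, 96.0 and 237.8 FPKM in CK-p25 libraries and 83.3, 91.6 and 107.2 FPKM in CK libraries, and did not pass against CK in CK-p25 PU.1 cKO (0.12, limma adjusted p = 0.818) or CK-p25 (0.50, limma adjusted p = 0.281). The CK-p25 value for Egr1 was 0.08 with CK-p25 replicate 3 left out. Egr2 passed in both contrasts and Egr1 in neither, and the difference between the 2 genes was not tested. Ier2 was at 80.9, 85.5 and 67.1 FPKM in the CK-p25 PU.1 cKO libraries, 82.6, 79.5 and 277.4 FPKM in CK-p25 libraries and 54.9, 54.9 and 64.7 FPKM in CK libraries. Both p25 groups lay above all CK libraries without passing, at 0.41 ± 0.42 in CK-p25 PU.1 cKO (limma adjusted p = 0.506) and 1.06 ± 0.42 in CK-p25 (limma adjusted p = 0.0916). Without CK-p25 replicate 3 Ier2 passed in both, at 0.41 and 0.48 (limma adjusted p = 0.0187 for each), beside the 46.6% and 41.8% of all genes given for Jun. Groups that did not overlap were seen for 5 of 9 members in CK-p25 PU.1 cKO against CK and for 3 of 9 in CK-p25 against CK, beside 58.5% and 46.5% of all genes.

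**Figure D2:**
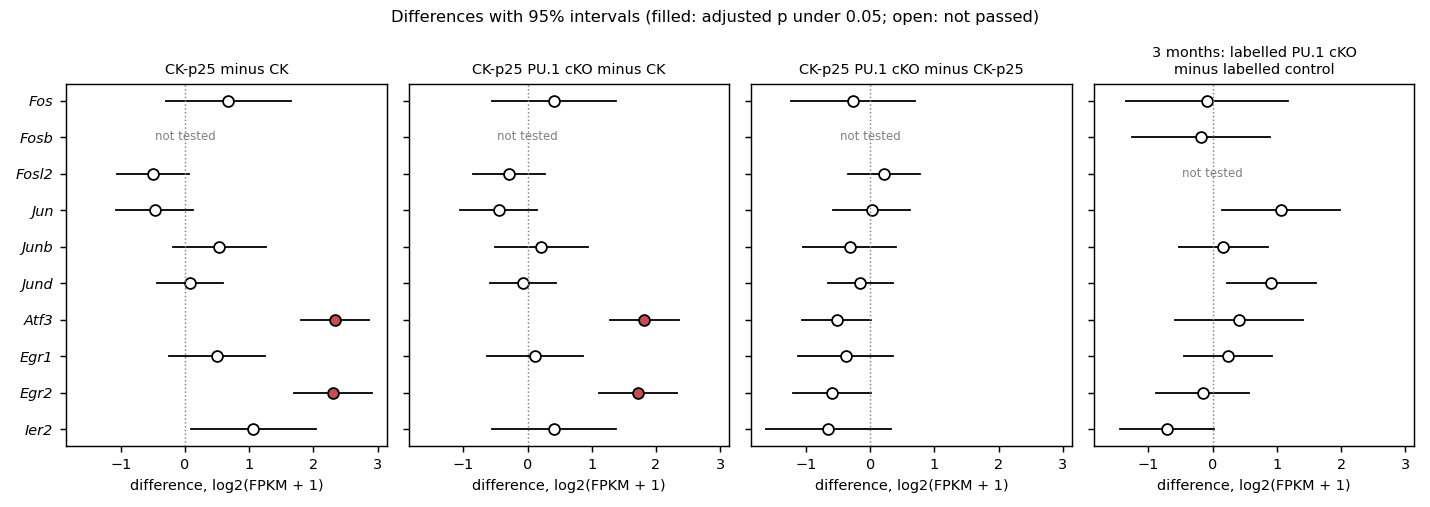
Log2 differences of the tested members in the 4 comparisons, with their 95% intervals, relative to 0; filled points passed at a limma adjusted p below 0.05. Atf3 and Egr2 in the contrasts with CK are the filled points, at 1.72 to 2.34.

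The make-up of AP-1 was described from the FPKM of the 6 Fos and Jun genes, a measure chosen after the values were seen. Jun made up 24.3 to 29.7% of the sum in CK-p25 PU.1 cKO libraries, 19.9 to 24.1% in CK-p25 libraries and 34.8 to 39.2% in CK libraries. The p25 groups did not overlap with CK, and this includes CK-p25 replicate 3, whose Jun share was the lowest of the 9 libraries at 19.9% although its Jun level was the highest of the 6 p25 libraries. The ratio of Junb to Jun was 1.38 to 1.84 in CK-p25 PU.1 cKO libraries, 1.82 to 2.29 in CK-p25 libraries and 0.978 to 1.04 in CK libraries. In each contrast with CK both measures gave an exact permutation p of 0.1, the smallest that 3 against 3 libraries allow in a two-sided test, and 0.167 when adjusted over the 20 shares and ratios examined. The Junb share and the Fos to Jun ratio gave the same values in both contrasts, while the Fos share overlapped with CK. Fos to Jun was 0.719 to 1.24 in CK-p25 PU.1 cKO libraries, 0.821 to 1.44 in CK-p25 libraries and 0.348 to 0.666 in CK libraries. Jun enters each of these measures. The Jun share also did not overlap between CK-p25 PU.1 cKO and CK-p25, with the same exact permutation p of 0.1 and adjusted value of 0.167.

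**Figure D3:**
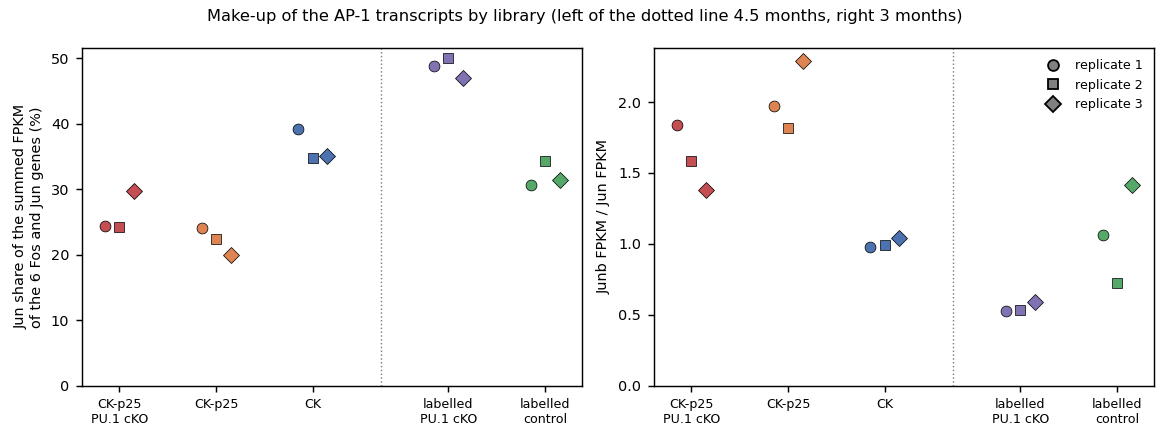
Jun share of the summed FPKM of the 6 Fos and Jun genes, in %, and the ratio of Junb to Jun. Each point is a library, and the groups of both ages are shown. The Jun share is smaller in the p25 libraries, 19.9 to 29.7%, than in CK libraries, 34.8 to 39.2%.

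CK-p25 replicate 3 carries a sequencing name with a prefix of its own in the labels, and it set much of the spread above. It was the highest of its group for 9 of 10 members. Compared with the mean of its group mates, a comparison added after the values were seen, Fos was 2.74-fold, Jun 2.01-fold, Junb 2.43-fold, Egr1 2.39-fold and Ier2 3.39-fold higher, so 5 of the 8 members averaging at least 10 FPKM were over 2-fold higher, beside 2.08% of the 5820 genes at that level. Among 17 genes known from dissociated tissue, 14 averaged at least 10 FPKM. Of these, 12 were above the mates, beside 54.9% of the 5820 genes, and 3 were over 2-fold, among them the MAP kinase phosphatase gene Dusp1 at 3.17-fold. The heat-shock gene Hspa1b was 0.448-fold. Of all genes, 42.1% were at 0 FPKM in this library, against 31.6 to 36.4% in the other 4.5-month libraries. The part of the separate sequencing name and of tissue dissociation in these values was not tested.

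**Figure D4:**
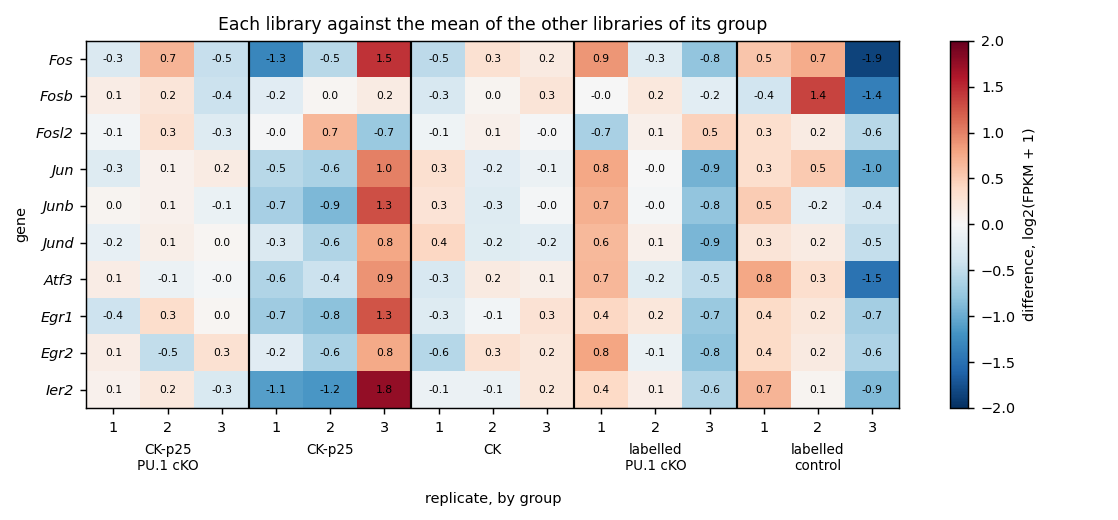
Heatmap of log2(FPKM + 1) of each library minus that of the mean FPKM of the other 2 libraries of its group, for the 10 members, with values printed. The CK-p25 replicate 3 values for Fos, Jun, Junb, Egr1 and Ier2 are above 1 (Jun at 1.01). The third library labelled control lies below its mates for all 10 members.

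Of the other genes of the pathway, from lists chosen with earlier results known, partners of AP-1 in CK-p25 against CK had 4 higher and 2 lower of 11 tested, with a median difference of -0.18 beside 0.00 over all genes. Maff, a small Maf protein, was at 2.67, 3.55 and 1.97 FPKM in CK-p25 libraries and 0.0867, 0.28 and 0.0322 FPKM in CK libraries and rose by 1.70 ± 0.19 (limma adjusted p = 0.000442). Batf2, Batf and Mafk rose by 1.05, 0.71 and 0.48, and Mafg and Atf2 fell by 0.59 and 0.43. In CK-p25 PU.1 cKO against CK, 4 of 11 were higher (Maff 1.67, Batf2 1.38, Batf 0.64 and Mafk 0.47) and 0 lower, and between the p25 groups 0 of 11 passed. Of all genes, 17.6% were higher and 13.7% lower in CK-p25 against CK. In CK-p25 PU.1 cKO against CK these shares were 17.8% and 13.3%, and they stand beside every list count of that contrast.

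Feedback inhibitors of the response had 2 higher and 3 lower of 13 in CK-p25 against CK, with a median of -0.32, beside 17.6% higher and 13.7% lower of all genes. Nab2 and Nab1, corepressors of EGR proteins, rose with Egr2: Nab2 was at 24.3, 22.4 and 29.1 FPKM in CK-p25 libraries and 9.86, 10.3 and 10.2 FPKM in CK libraries, a rise of 1.23 ± 0.12 (limma adjusted p = 0.000193). Nab1 rose by 0.94 ± 0.10 (limma adjusted p = 0.000386). In CK-p25 PU.1 cKO libraries Nab2 was at 20.8, 23.1 and 26.3 FPKM, 1.12 ± 0.12 above CK, and Nab1 rose by 1.06 ± 0.10, so of 13 inhibitors again 2 were higher and 3 lower. The lower ones were Dusp6, a phosphatase of ERK, Zfp36l2, an RNA decay factor, and Spred1, at -0.88, -0.84 and -0.79 in CK-p25 against CK, and Dusp6, Zfp36l2 and Spry1 at -0.98, -0.69 and -1.08 in CK-p25 PU.1 cKO against CK. Dusp1 was at 91.3, 112 and 324 FPKM in CK-p25 libraries and 61.0, 59.0 and 66.6 FPKM in CK libraries, and did not pass (1.25 ± 0.45, limma adjusted p = 0.0669).

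Among other immediate early genes, 2 rose and 2 fell of 16 in CK-p25 against CK, with a median of -0.25, beside 17.6% higher and 13.7% lower of all genes. Gadd45b, a stress-response gene, rose by 1.59 and Ier3 by 0.78, while Rhob, a small GTPase gene, was at 95.1, 83.3 and 82.0 FPKM in CK-p25 libraries against 227, 201 and 220 FPKM in CK libraries and fell by 1.31 ± 0.09 (limma adjusted p = 3.98e-05). Trib1 fell by 0.87. In CK-p25 PU.1 cKO against CK, Gadd45b rose by 1.40, and Rhob, Trib1, Klf10 and Ier5 fell by 1.19, 1.14, 0.79 and 0.36, with 1 higher and 4 lower of 16. For Ier3 the CK-p25 PU.1 cKO libraries had 33.6, 29.7 and 24.3 FPKM, against 36.9, 48.4 and 56.4 FPKM in CK-p25 libraries, and this difference did not pass (limma adjusted p = 0.745).

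Upstream, 2 of 20 kinase and factor genes rose and 5 fell in CK-p25 against CK, with a median of -0.13. For this list and the next ones, 17.6% of all genes were higher and 13.7% lower in that contrast. Map3k8, which activates ERK below Toll-like receptors, rose by 1.25 and Mapkapk2, a kinase downstream of p38, by 1.09, while Mapk14, which encodes p38α, fell by 0.87, Rps6ka1 by 0.75, Creb1 by 0.74 and Mkl1 by 0.68. In CK-p25 PU.1 cKO against CK the counts were 2 higher and 3 lower. Textbook AP-1 targets had 6 higher and 1 lower of 10 in CK-p25 against CK (median 1.29), and 6 higher and 1 lower in CK-p25 PU.1 cKO against CK (median 1.27). Spp1, Plaur, Cd44 and Mmp12 rose by 7.68, 3.50, 2.07 and 1.92 in CK-p25 and by 7.48, 2.62, 2.43 and 1.68 in CK-p25 PU.1 cKO, and Il6 fell by 1.58 and 2.49. Plaur, the urokinase receptor gene, was at 73.1, 52.3 and 107 FPKM in CK-p25 libraries against 4.91, 5.96 and 6.21 FPKM in CK libraries. Dissociation-associated genes had 4 higher and 2 lower of 17 in CK-p25 against CK, with a median of 0.67, and 3 higher and 3 lower in CK-p25 PU.1 cKO against CK. The chemokine genes Ccl3 and Ccl4 rose by 2.63 and 2.59 in CK-p25 against CK. Of the 17, 11 did not pass. Among these, Btg2 (-0.24, limma adjusted p = 0.402) and Zfp36 (0.20, limma adjusted p = 0.213) lay below the list median of 0.67. Dusp1, given above, lay over it. Between CK-p25 PU.1 cKO and CK-p25, 0 genes of any of these lists passed.

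By likeness of log2(FPKM + 1) over the 9 libraries at 4.5 months, among 5819 genes averaging 10 FPKM or more, the genes most like Fos were Dek, Lta4h, Zc3h14, Abcf1 and Ddx50, with r of 0.94, 0.93, 0.92, 0.92 and 0.92. Egr1 and Ier2 came at places 19 and 22, with r of 0.88 for each, and Jun at place 2586 with r of 0.20. The points share CK-p25 replicate 3, the library with the highest Fos level, and their groups, and r is a description. Atf3 was most like Arpc1b, Rrp1, Ybx1, Anp32b and Shmt2, with r of 0.997 to 0.989, and Egr2 came at place 19 with r of 0.985.

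At 3 months no member passed, with 0 of 9 beside 30.1% of all 10845 genes. An unadjusted p below 0.05 was found for 2 of 9, and for at least that 30.1% of all genes. Jun was at 1128, 815.3 and 506.5 FPKM in libraries labelled PU.1 cKO, against 454.0, 488.2 and 227.0 FPKM in libraries labelled control, the highest level of any member. The groups did not overlap, and the difference was 1.07 ± 0.39 (limma adjusted p = 0.077). Jund was at 104.0, 82.6 and 49.3 FPKM in libraries labelled PU.1 cKO, against 45.1, 43.2 and 31.6 FPKM in libraries labelled control, with 0.91 ± 0.30 (limma adjusted p = 0.053). Non-overlap was found for 48.8% of all genes and 2 of 9 members. Jund passed under 7 of the 15 alternatives, in which 15.2 to 36.3% of all genes passed. Border macrophage markers summed to 194 to 257 FPKM in libraries labelled PU.1 cKO and 318 to 1107 FPKM in libraries labelled control. Monocyte markers summed to 6.30 to 31.2 FPKM in libraries labelled PU.1 cKO and 40.1 to 166 FPKM in libraries labelled control, and astrocyte markers to 61.8 to 71.1 FPKM in libraries labelled PU.1 cKO and 15.2 to 29.3 FPKM in libraries labelled control. Of 4 astrocyte markers tested, 1 passed as higher and 3 did not pass. Their median difference was -0.32, so the higher sum does not hold for each marker. The part of these cells in the 3-month values was not tested.

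Ier2 was at 161.6, 143.2 and 100.3 FPKM in libraries labelled PU.1 cKO, against 303.1, 232.8 and 144.1 FPKM in libraries labelled control (-0.71 ± 0.31, limma adjusted p = 0.124). Fos was at 480.3, 295.2 and 223.0 FPKM in libraries labelled PU.1 cKO and 495.8, 535.7 and 141.6 FPKM in libraries labelled control, with a difference of -0.08 ± 0.54 that had the widest interval, -1.34 to 1.18. Junb (0.17), Atf3 (0.41), Egr1 (0.24), Egr2 (-0.16) and Fosb (-0.19) also did not pass. Junb ranged over 298 to 596 FPKM in libraries labelled PU.1 cKO and 322 to 481 FPKM in libraries labelled control. Egr1 ranged over 140 to 245 FPKM in libraries labelled PU.1 cKO and 122 to 203 FPKM in libraries labelled control. Egr2 ranged over 8.41 to 18.7 FPKM in libraries labelled PU.1 cKO and 10.3 to 17.1 FPKM in libraries labelled control. Fosb lay at 0.607 to 0.955 FPKM in libraries labelled PU.1 cKO and 0.116 to 2.87 FPKM in libraries labelled control, and Fosl2 at 0.313 to 1.22 FPKM in libraries labelled PU.1 cKO and 0.588 to 1.42 FPKM in libraries labelled control. Atf3 was at 37.5, 24.9 and 21.5 FPKM in libraries labelled PU.1 cKO and 31.6, 26.3 and 9.80 FPKM in libraries labelled control. Without replicate 3 labelled control the differences were -0.70 for Fos, -0.08 for Atf3, 0.72 for Jun and 0.75 for Jund, and Ier2 passed as lower (limma adjusted p = 0.0413). With that library left out, 23.5% of all genes passed.

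**Figure D5:**
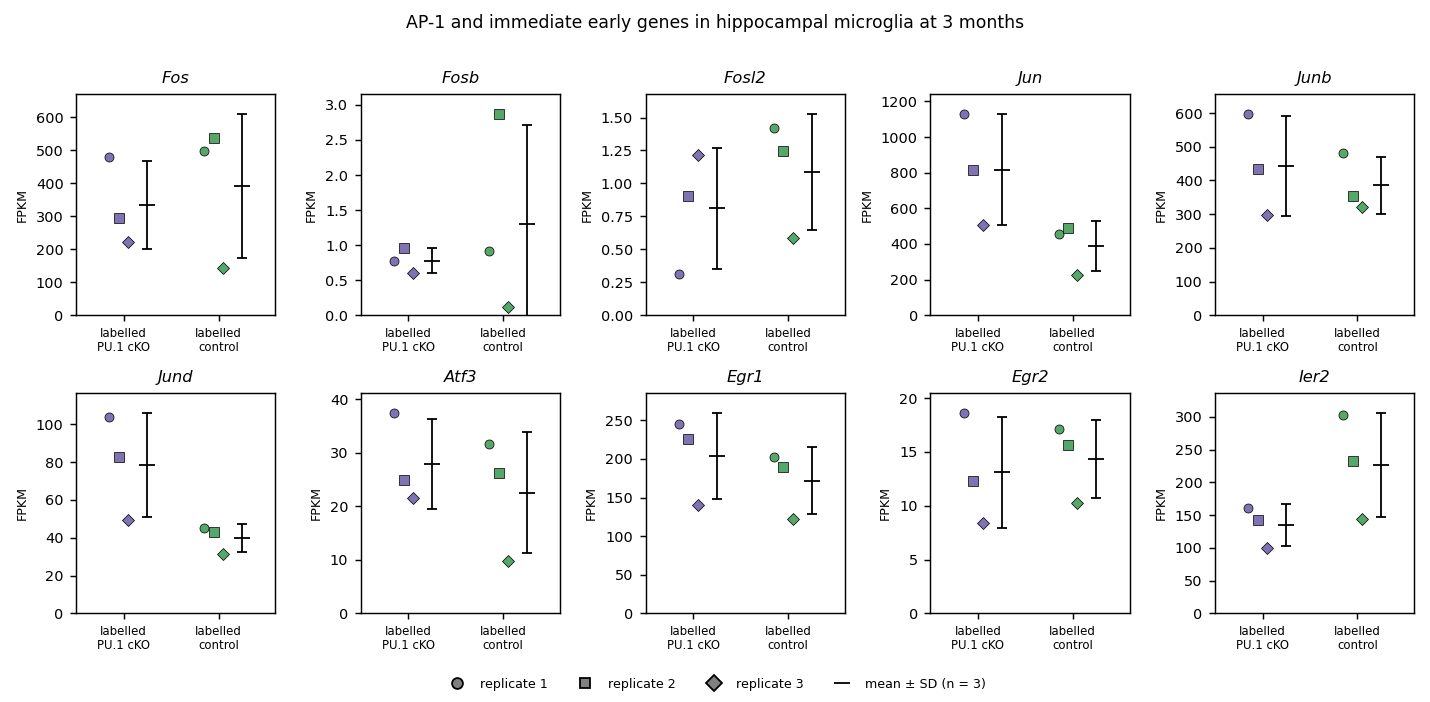
FPKM of the 10 genes at 3 months in libraries labelled PU.1 cKO and labelled control, in a panel per gene with a linear axis from 0; symbols are replicates and bars are mean ± SD (n = 3). Jun and Jund are higher in every library labelled PU.1 cKO, and the third library labelled control is the lowest of its group for all 10 genes.

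Within the groups at 3 months the members varied together by library. Replicate 3 labelled control was the lowest of its group for 10 of 10 members, and of the 8 averaging at least 10 FPKM 3 were over 2-fold below the mates, beside 3.27% of the 6206 genes at that level. Replicate 1 labelled PU.1 cKO was the highest for 8 of 10 and replicate 3 the lowest for 9 of 10. Of the 17 dissociation-associated genes, 15 averaged at least 10 FPKM. Of these, 12 were above the mates in replicate 1 labelled PU.1 cKO, 2 in replicate 3 labelled PU.1 cKO and 2 in replicate 3 labelled control, beside 64.1%, 48.2% and 65.7% of the 6206 genes. The medians of all 17 were 0.39, -0.45 and -0.60 in the same libraries, beside 0.11, -0.01 and 0.21 over the 6206 genes. The part of dissociation was not tested. The Jun share of the 6 Fos and Jun genes was 46.9 to 50.1% in libraries labelled PU.1 cKO and 30.7 to 34.3% in libraries labelled control, and the Junb to Jun ratio was 0.529 to 0.589 in libraries labelled PU.1 cKO and 0.723 to 1.42 in libraries labelled control. The exact permutation p was 0.1 for each and 0.167 after adjustment. Nab1 and Nab2 were lower in libraries labelled PU.1 cKO, by 1.07 and 0.71 on the log2 scale (limma adjusted p = 0.0116 and 0.0352), with 1 higher and 3 lower of 14 feedback inhibitors. The genes most like Fos over the 6 libraries were Ogfod2, Spry1, Sart1, Pim2 and Nucb1, with r of 0.98, 0.96, 0.95, 0.94 and 0.93. AP-1 partners had 2 higher (Bach2 1.43 and Atf2 0.52) and 0 lower of 10, and textbook targets 0 higher and 4 lower of 9, with Spp1 at -5.99 and Cd44 at -2.49. Other immediate early genes had 2 higher (Rhob 1.23 and Btg2 1.18) and 7 lower of 17, among them Ier3 at -1.75 and Myc at -1.69. Upstream genes had 2 higher and 1 lower of 20, and dissociation-associated genes 2 higher and 5 lower of 17. The list counts at 3 months stand beside 12.4% higher and 17.8% lower of all 10845 genes.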

How the data were processed

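Per the labels' protocols, RNA of sorted hippocampal microglia was made into libraries with SMART-Seq v4 and Nextera XT, which do not mark strand. Per the submitters' processing notes, TopHat, Bowtie and Cufflinks 2.0.0 were used on mm9. The deposited tables hold FPKM, made by the authors; total depth is not given, so no counting interval can be had. Read from the commonest ratio of low values, the worth of 1 fragment relative to the first column was 0.893 to 1.298 at 4.5 months, highest in CK-p25 replicate 3, and 0.763 to 1.008 at 3 months. 4 ChIP samples are not analysed here. From the deposited FPKM, log2(FPKM + 1) values with a mean of at least 1 FPKM were tested with limma 3.58.1 (R 4.3.3) with a variance trend, 2-sided, on 6 libraries at 3 months and 9 at 4.5 months, each table on its own, and adjusted by Benjamini-Hochberg over all genes tested. The fits were tested on simulated data in which each gene varied on its own. A library in which many genes shift together, as in CK-p25 replicate 3, was not simulated. The rule for named genes was all 10 members in each comparison and, from each list, up to 4 genes in each direction. A few further list genes, the AP-1 shares, the library comparison, the Egr2 window and the wider motif were chosen after their values were seen. The members and lists were chosen with earlier results of these data known. At 3 months titles and column names conflict, and titles were followed. Alternatives were other pseudocounts, filters, normalizations, a replicate block and leaving out each library.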

Additional observations from a re-analysis of the deposited data

How the results depend on the processing

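Atf3 and Egr2 passed in both contrasts with CK under every alternative run, and no called difference changed sign. In CK-p25 against CK, 1 member (Jun, -0.82, limma adjusted p = 0.0483) was lower under quantile normalization, and leaving out a library gave 2 to 3 higher and 0 to 1 lower. Of all genes, 32.9% passed there under quantile normalization and 21.3 to 41.8% with a library left out. In CK-p25 PU.1 cKO against CK, 1 member (Jun, -0.45, limma adjusted p = 0.0313) was lower and 3 higher, Ier2 (0.41, limma adjusted p = 0.0324) joining Atf3 and Egr2, when only the compared libraries were fitted, and leaving out a library gave 2 to 3 higher and 0 to 1 lower. Of all genes, 46.3% passed in this contrast with only the compared libraries, and 22.2 to 46.6% with a library left out. Fosl2 was lower in CK-p25 against CK without CK-p25 replicate 2 (-0.73, limma adjusted p = 0.033), beside 29.1% of all genes that passed. Between the p25 groups 0 members passed in either direction under all alternatives. At 3 months 1 member (Jund) was higher with a pseudocount of 0.1, a filter at 5 FPKM, median centring, quantile normalization or without genes that are 0 in some library but reach 100 FPKM elsewhere, an alternative chosen after seeing the data; leaving out a library gave 0 to 1 higher and 0 to 1 lower, with Jund higher without replicate 3 labelled PU.1 cKO and Ier2 lower (-0.999) without replicate 3 labelled control. With a replicate block, 2 were higher (Jun and Jund) and 1 lower (Ier2) at 3 months and no call changed at 4.5 months. The block at 3 months had 31.2% of all genes passing. In the 3-month settings that kept every library and called Jund, this share was 31 to 36.3%. Leaving out a library at 3 months gave 13.4 to 42.9%. The labels do not say whether same-numbered libraries are paired. Over all tested genes, with group means taken out, same-numbered libraries at 3 months had r of 0.17, 0.16 and -0.05, which cannot decide it. The share of calls that were higher at 3 months was 41.1% as deposited, 51.0% with median centring and 53.0% with quantile normalization; in CK-p25 against CK it was 56.3, 53.6 and 45.6%. For CK-p25 PU.1 cKO against CK it was 57.2, 52.2 and 45.9%. Groups of 3 libraries and unknown depth limit what can be seen, above all for Fosb and Fosl2.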
